A study of Homo sapiens with 30 samples.

Results

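The genes ZNF365, SP4, PGM2L1, ZC3H6, TENT5C and NUAK2 were chosen by their measured values: among 11406 genes with a mean of at least 5 CPM (read counts scaled to library size) in an ICRF or siControl group, they had the 6 largest positive differences of the progestin response, ICRF minus siControl. They are 6 of the 60554 genes in each deposited table and 6 of the 19003 genes that passed the filter on low counts, which all 6 did. RNA was sequenced in T47D, a human luminal breast cancer line that makes much progesterone receptor. The 12 RNA-seq libraries used here formed 6 groups of 2: ICRF with progestin, ICRF untreated, si-CEBPa with progestin, si-CEBPa untreated, si-control with progestin and si-control untreated. The 18 ChIP-seq samples of the series were not analysed here. The si-CEBPa groups, called siCEBPA below, carried an siRNA against the transcription factor gene CEBPA, and the si-control groups, called siControl, a control siRNA.

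All cells were T47D at passages 18 to 20. The titles of the treated libraries name progesterone, and the protocol gives the hormone as R5020, a synthetic progestin, at 10 nM. The siRNA libraries were labelled short arrest, which the protocol describes as 4 hours in charcoal-treated serum before hormone. Their untreated libraries carry the time label T0 and their progestin libraries T360, with no unit, so hormone and time label cannot be told apart in them. The ICRF libraries carry no siRNA, arrest or time label, and the dose and exact compound are not given in the sources used here. ICRF against siControl therefore also differs in siRNA, arrest and time label, and these cannot be told apart from ICRF. The labels do not say that replicates came from separate cultures. A p-value here reflects only how far replicate libraries lie apart, pooled over the 6 groups and shared in part over genes. That spread may be technical variation.

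Progestins bind the progesterone receptor, which then enters chromatin and raises some genes and lowers others in breast cells. ICRF usually names a bisdioxopiperazine that blocks the catalytic cycle of DNA topoisomerase II, the enzyme that passes one DNA duplex through another to relieve supercoils and tangles. The 6 genes have no common pathway. SP4 is a transcription factor of the SP family, which binds GC boxes, and is best known in neurons. ZC3H6 is a CCCH zinc finger protein, a class of which many members bind RNA. ZNF365 encodes zinc finger proteins that have been tied to the centrosome and to genome stability. TENT5C is a non-canonical poly(A) polymerase that lengthens messenger RNA tails and restrains the growth of myeloma cells. PGM2L1 makes glucose bisphosphate, the cofactor of the phosphoglucomutases. NUAK2 is a kinase of the AMPK-related family, activated by LKB1 and known for its action on myosin phosphatase and the actin skeleton.

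The promoters of SP4 and ZC3H6 are printed because these 2 genes had the most similar profiles over the 6 groups. That of NUAK2 is printed because its pattern differed from theirs. The values that chose the genes are part of these profiles. Each is the 250 bases before the RefSeq start (build GRCh38.p14), 5′ to 3′ on the gene's strand, with matches to the GC box GGGCGG or the CCAAT box, on either strand, in capitals. They lie at chr7:21427833-21428082 on the plus strand, chr2:112275347-112275596 on the plus strand and chr1:205321746-205321995 on the minus strand.
SP4: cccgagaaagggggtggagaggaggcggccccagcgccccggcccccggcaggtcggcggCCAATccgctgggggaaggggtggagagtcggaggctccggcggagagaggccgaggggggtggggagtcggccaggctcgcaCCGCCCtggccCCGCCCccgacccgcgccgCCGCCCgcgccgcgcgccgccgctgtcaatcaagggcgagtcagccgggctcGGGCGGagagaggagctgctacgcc
ZC3H6: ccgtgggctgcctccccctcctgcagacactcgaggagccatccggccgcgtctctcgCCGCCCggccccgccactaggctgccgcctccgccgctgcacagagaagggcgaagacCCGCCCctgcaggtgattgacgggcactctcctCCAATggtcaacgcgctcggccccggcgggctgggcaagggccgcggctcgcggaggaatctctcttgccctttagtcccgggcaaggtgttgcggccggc
NUAK2: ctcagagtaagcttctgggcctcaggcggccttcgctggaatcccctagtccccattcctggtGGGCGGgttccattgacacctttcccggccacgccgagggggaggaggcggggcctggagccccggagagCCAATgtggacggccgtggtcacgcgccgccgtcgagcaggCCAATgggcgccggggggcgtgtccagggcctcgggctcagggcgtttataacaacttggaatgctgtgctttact

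The GC box, the motif that SP factors such as SP4 itself bind, matched in all 6 promoters, with 4 matches in SP4, 2 in ZC3H6, 2 in ZNF365, 7 in TENT5C, 5 in PGM2L1, some of them overlapping, and 1 in NUAK2. Of 34943 promoter windows of the same length, 42.5% held a GC box. The CCAAT box (reverse ATTGG) matched in 4 of the 6 and in 32.0% of all windows. The members' windows were 64.8% to 79.6% G and C, against a median of 58.0% over all windows. The steroid receptor half-site AGAACA (12.4% of all windows), the palindromic core ACANNNTGT (4.6%), the C/EBP motif TTNNGCAA (9.1%), which includes the C/EBP palindrome TTGCGCAA (0.1%), and the cyclic AMP response element TGACGTCA (1.6%) had no match in the 6 windows on either strand. A match or its absence in such a window says nothing about binding.

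In the deposited annotation (hg38, GENCODE 24) SP4 lies at chr7:21428034-21514822, ZC3H6 at chr2:112275594-112340063 and ZNF365 at chr10:62374192-62672011, all on the plus strand. TENT5C lies at chr1:117605934-117628372 on the plus strand, and PGM2L1 at chr11:74330318-74398473 and NUAK2 at chr1:205302059-205321791 on the minus strand. Their merged exons span 3441 bases in NUAK2 to 11803 in ZC3H6, where the median tested gene has 3990, and form 2 separate blocks in TENT5C to 17 in ZNF365. Counts were made over all exons of a gene, so the isoforms of ZNF365 were not told apart.

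Library totals ran from 57364785 to 148624099 counts, with siControl untreated replicate 2 the deepest and the 4 ICRF libraries between 103156070 and 108066269. CEBPA, the siRNA target, had 89.7 and 87.3 CPM in ICRF, 57.5 and 62.2 CPM in siCEBPA and 207 and 204 CPM in siControl libraries with progestin. It had 38.1 and 38.3 CPM in ICRF, 10.7 and 12.1 CPM in siCEBPA and 47.7 and 54.4 CPM in siControl libraries without it, so it was lowest in the knockdown cells in both states. The progestin-induced gene TSC22D3 was higher with progestin in each condition, with log2 changes of 2.05 under ICRF, 3.94 in siCEBPA and 4.03 in siControl cells. FKBP5 also changed less under ICRF (1.28) than in siControl cells (2.66). PDK4 (3.14 under ICRF and 3.38 in siControl cells) and PGR (-1.92 and -1.83) changed by like amounts. Their differences of responses did not pass the edgeR test (adjusted p = 0.0971 and 0.123). All 9 luminal markers were expressed, and their summed level was 5021 to 5285 CPM in ICRF progestin libraries and 7037 to 10628 CPM in the other 10. Of 10 fibroblast, endothelial and blood cell markers COL1A1 alone reached 1 CPM in a group, with their sum at 26.1 to 30.9 CPM in ICRF and 56.1 to 70.3 CPM in siRNA libraries. Of 3 basal markers 2 did, with sums of 0.359 to 2.76 CPM over all libraries. The part of these shifts in the results below was not tested.

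Of the 6 genes, 5 were both higher with progestin under ICRF and lower with progestin in siControl cells, so that their place at the top of the ranking came from both directions. NUAK2 was lower with progestin in both, and its place came from a siControl difference far larger than that under ICRF. For none of the 6 was the lower level with progestin limited to siControl cells, since all 6 also fell in siCEBPA cells. The siCEBPA libraries had no part in the choice, but over all tested genes their response lay near that of siControl cells. The 2 responses differed by a median absolute log2 of 0.17, where the siControl response itself had 0.41. A siCEBPA fall was thus likely for genes that fell in siControl cells and is not separate support. Values under ICRF and in siControl cells chose the genes and are given as a description, as log2 changes with the standard error of the fit. The response in siCEBPA cells was tested.

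**Figure D1:**
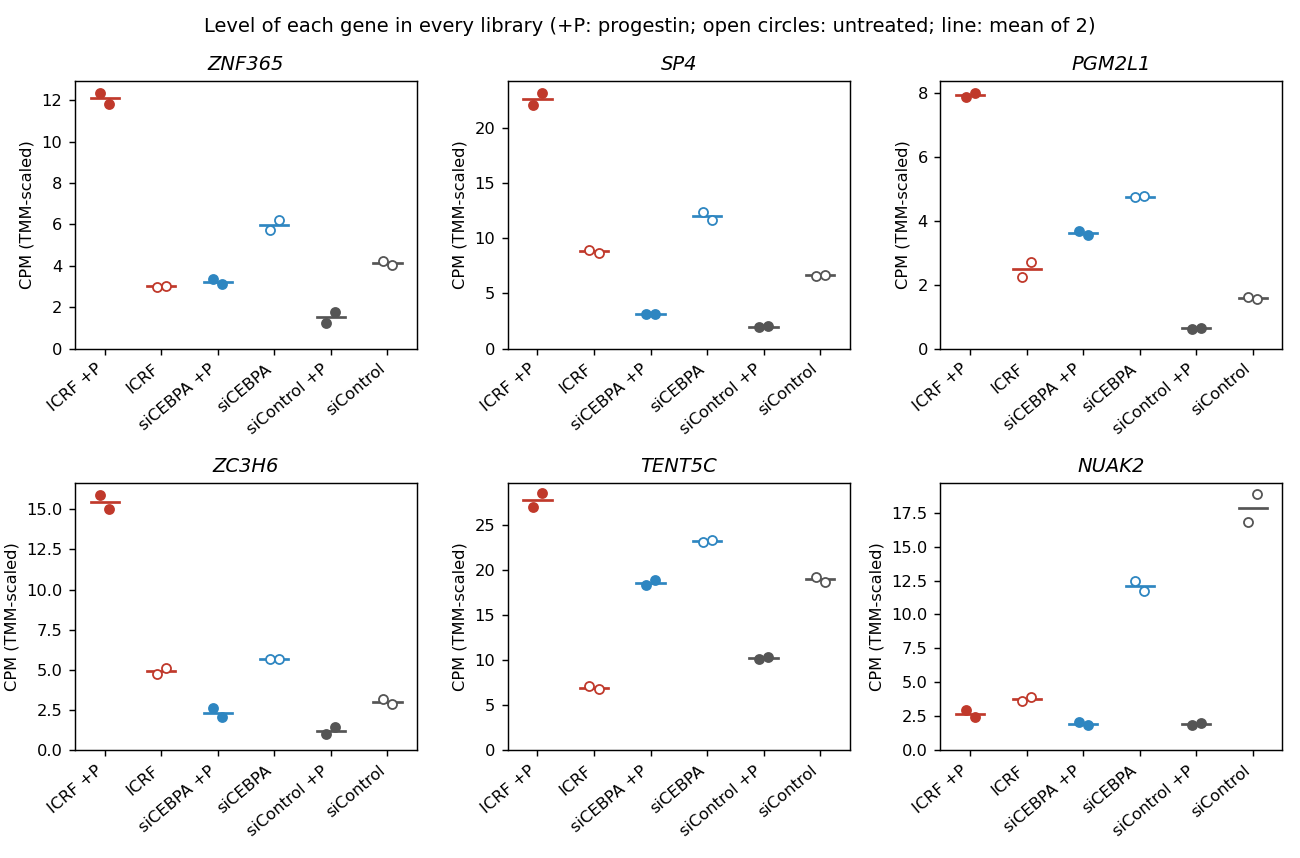
TMM-scaled CPM of the 6 genes in each of the 12 libraries, with filled circles for progestin, open circles for untreated and a line for the mean of 2 libraries. ICRF with progestin is the highest group for every gene except NUAK2, whose highest group is siControl untreated.

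SP4, the GC box factor, had 22.0 and 23.2 CPM in ICRF progestin libraries, against 8.91 and 8.67 CPM in ICRF untreated libraries. It had 3.10 and 3.13 CPM in siCEBPA progestin libraries, against 12.4 and 11.6 CPM in siCEBPA untreated libraries. It had 1.96 and 2.02 CPM in siControl progestin libraries, against 6.58 and 6.67 CPM in siControl untreated libraries. No libraries of neighbouring groups overlapped in the order of levels. That order ran from ICRF progestin at the top through siCEBPA untreated, ICRF untreated, siControl untreated and siCEBPA progestin to siControl progestin. How many of all tested genes lack such overlap was not computed, here or for the genes below. The log2 change with progestin was 1.36 ± 0.07 under ICRF and -1.74 ± 0.10 in siControl cells, a difference of 3.10 ± 0.12. In siCEBPA cells SP4 fell by 1.95 ± 0.09 on the log2 scale (edgeR quasi-likelihood test, Benjamini-Hochberg adjusted p = 9.03e-14). SP4 was the 1 member whose siCEBPA value lay below its siControl value.

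ZC3H6, the CCCH zinc finger gene, followed the same order of groups as SP4. Its levels were 15.9 and 15.0 CPM in ICRF progestin libraries, against 4.72 and 5.11 CPM in ICRF untreated libraries. They were 2.62 and 2.05 CPM in siCEBPA progestin libraries, against 5.66 and 5.65 CPM in siCEBPA untreated libraries. In siControl cells they were 1.004 and 1.42 CPM in progestin libraries, against 3.16 and 2.90 CPM in untreated libraries. No neighbouring groups overlapped, although siCEBPA progestin and siControl untreated were close, at means of 2.33 ± 0.41 and 3.03 ± 0.18 CPM (SD, n = 2 each). The log2 change was 1.65 ± 0.11 under ICRF and -1.32 ± 0.16 in siControl cells, a difference of 2.97 ± 0.19. In siCEBPA cells ZC3H6 fell by 1.27 ± 0.13 (edgeR adjusted p = 5.46e-08), close to the value in siControl cells.

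ZNF365 had the largest difference of responses, 3.46 ± 0.18. The gene had 12.4 and 11.8 CPM in ICRF progestin libraries, against 2.99 and 3.04 CPM in ICRF untreated libraries, a log2 change of 2.00 ± 0.11. In siCEBPA cells it had 3.35 and 3.10 CPM with progestin, against 5.75 and 6.23 CPM untreated. In siControl cells it had 1.25 and 1.77 CPM with progestin, against 4.25 and 4.05 CPM untreated, a log2 change of -1.46 ± 0.14. In siCEBPA cells ZNF365 fell by 0.89 ± 0.12 (edgeR adjusted p = 2.28e-06). With progestin ZNF365 was 8.04-fold higher in ICRF than in siControl libraries, and untreated it was lower there, at -0.46 ± 0.12 on the log2 scale. No neighbouring groups overlapped, but siCEBPA progestin and ICRF untreated, at 3.22 ± 0.17 and 3.01 ± 0.03 CPM (SD, n = 2 each), were nearly level.

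TENT5C, the poly(A) polymerase gene, was the best expressed of the 6 per length in ICRF progestin libraries, at 4.83 CPM per kb of exon. It had 26.9 and 28.6 CPM in ICRF progestin libraries, against 7.15 and 6.75 CPM in ICRF untreated libraries, a 4.00-fold higher level with progestin. It had 18.3 and 18.8 CPM in siCEBPA progestin libraries, against 23.1 and 23.4 CPM in siCEBPA untreated libraries. It had 10.1 and 10.3 CPM in siControl progestin libraries, against 19.3 and 18.6 CPM in siControl untreated libraries. Here ICRF untreated was the lowest of the 6 groups, and siCEBPA progestin overlapped siControl untreated. The log2 change was 2.00 ± 0.07 under ICRF and -0.89 ± 0.07 in siControl cells. In siCEBPA cells TENT5C fell by 0.32 ± 0.07 (edgeR adjusted p = 0.000227), the smallest siCEBPA fall of the 6. ICRF against siControl gave 1.44 ± 0.07 with progestin and -1.45 ± 0.07 untreated, so the 2 conditions changed order with the hormone.

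PGM2L1, which makes glucose bisphosphate, had 7.87 and 8.01 CPM in ICRF progestin libraries, against 2.24 and 2.71 CPM in ICRF untreated libraries. In siCEBPA cells it had 3.70 and 3.56 CPM with progestin, against 4.75 and 4.76 CPM untreated. In siControl cells it had 0.616 and 0.649 CPM with progestin (38 and 37 counts), against 1.62 and 1.56 CPM untreated. Both siControl groups were the lowest for this gene, and no neighbouring groups overlapped. Per kb of exon it was the lowest of the 6 in siControl progestin libraries, at 0.0717 CPM. The log2 change was 1.68 ± 0.11 under ICRF and -1.33 ± 0.18 in siControl cells, a difference of 3.00 ± 0.21. In siCEBPA cells PGM2L1 fell by 0.39 ± 0.12 (edgeR adjusted p = 0.00864). Without siCEBPA progestin replicate 2 the estimate was -0.36 and missed the threshold (edgeR adjusted p = 0.0545). PGM2L1 was also the member that differed most between siCEBPA and siControl cells, by 2.52 ± 0.16 with progestin and 1.58 ± 0.13 untreated, which was not tested because the siControl libraries chose it.

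NUAK2, the AMPK-related kinase gene, had 2.94 and 2.43 CPM in ICRF progestin libraries, against 3.63 and 3.94 CPM in ICRF untreated libraries. It had 2.05 and 1.87 CPM in siCEBPA progestin libraries, against 12.5 and 11.8 CPM in siCEBPA untreated libraries. It had 1.85 and 1.98 CPM in siControl progestin libraries, against 16.8 and 18.8 CPM in siControl untreated libraries. The 3 progestin groups thus lay between 1.85 and 2.94 CPM, with siCEBPA and siControl overlapping, and the wide spread was among the untreated groups. The log2 change was -0.50 ± 0.11 under ICRF and -3.22 ± 0.12 in siControl cells, a difference of 2.73 ± 0.16. NUAK2 fell by 2.63 ± 0.12 in siCEBPA cells, a 6.17-fold lower level (edgeR adjusted p = 6.3e-14). Untreated NUAK2 was 4.72-fold lower in ICRF than in siControl libraries.

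**Figure D2:**
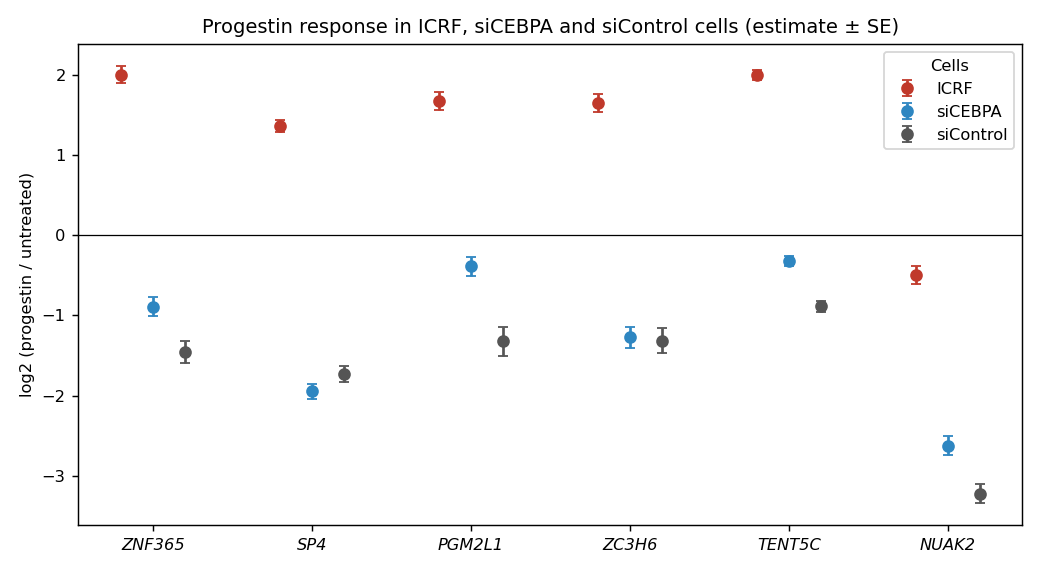
Log2 change with progestin, estimate ± SE, for each gene in ICRF (red), siCEBPA (blue) and siControl (grey) cells. The ICRF estimates of 5 genes lie between 1.36 and 2.00 and that of NUAK2 at -0.50, while all siCEBPA and siControl estimates lie below 0.

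The siCEBPA falls of all 6 were past the threshold of an adjusted p of 0.05, in a fit in which 27.4% of tested genes were called lower and 29.9% higher with progestin in those cells. Both siCEBPA progestin libraries were below both untreated libraries for 6 of 6 genes, as for 39.3% of tested genes. These shares are over all tested genes. The shares among genes that fell in siControl cells, as the 6 did, were not computed. With upper quartile factors the siCEBPA split over all genes was 4272 called higher and 7032 lower, and with no scaling factors 3876 and 7716, where TMM gave 5683 and 5206. The median gene shifted with them, to -0.15 and -0.20, where TMM gave -0.02, and the 6 falls were called under both. The siCEBPA log2 changes ran, largest first, from -2.63 for NUAK2 and -1.95 for SP4 over -1.27 for ZC3H6 and -0.89 for ZNF365 to -0.39 for PGM2L1 and -0.32 for TENT5C. The last pair lay near the median absolute change of a tested gene in those cells, 0.40. In siControl cells the same 6 gave -3.22, -1.74, -1.32, -1.46, -1.33 and -0.89 in that order, as a description.

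The libraries that chose the genes gave these backgrounds. Under ICRF 30.5% of tested genes were called higher and 26.7% lower with progestin, and both progestin libraries were above both untreated libraries for 40% of tested genes and for 5 of the 6. In siControl cells 29.5% were called higher and 28.1% lower, and both progestin libraries were below both untreated libraries for 39.9% of tested genes and for all 6. The ICRF split of 5800 higher and 5080 lower was 4938 and 6244 with upper quartile factors. The siControl split of 5612 higher and 5342 lower was 4322 and 7011 with upper quartile factors and 3938 and 7626 with no scaling factors. The difference of responses was called positive for 24.9% and negative for 24% of tested genes, 4729 and 4564. With no scaling factors these were 6225 and 3328, with a median of 0.17 (0.02 with TMM). With RLE factors they were 4500 and 4827. Nothing is read from these counts about the 6, which had to lie at the end of the distribution.

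With and without progestin, the 6 genes stood differently in ICRF against siControl libraries. With progestin all 6 were higher under ICRF, with log2 differences of 3.68 for ZC3H6, 3.65 for PGM2L1, 3.50 for SP4, 3.01 for ZNF365, 1.44 for TENT5C and 0.49 for NUAK2. Untreated, ZC3H6, PGM2L1 and SP4 were higher under ICRF by 0.71, 0.64 and 0.41, and ZNF365, TENT5C and NUAK2 differed by -0.46, -1.45 and -2.24. ZC3H6, PGM2L1 and SP4 were thus apart mainly with progestin, TENT5C in opposite directions by like amounts, and NUAK2 mainly when untreated. The ICRF response made up 69.2% of the difference of responses for TENT5C, 57.9% for ZNF365, 55.9% for PGM2L1, 55.6% for ZC3H6 and 43.9% for SP4, and for NUAK2 -18.2%, since its ICRF response was negative.

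**Figure D3:**
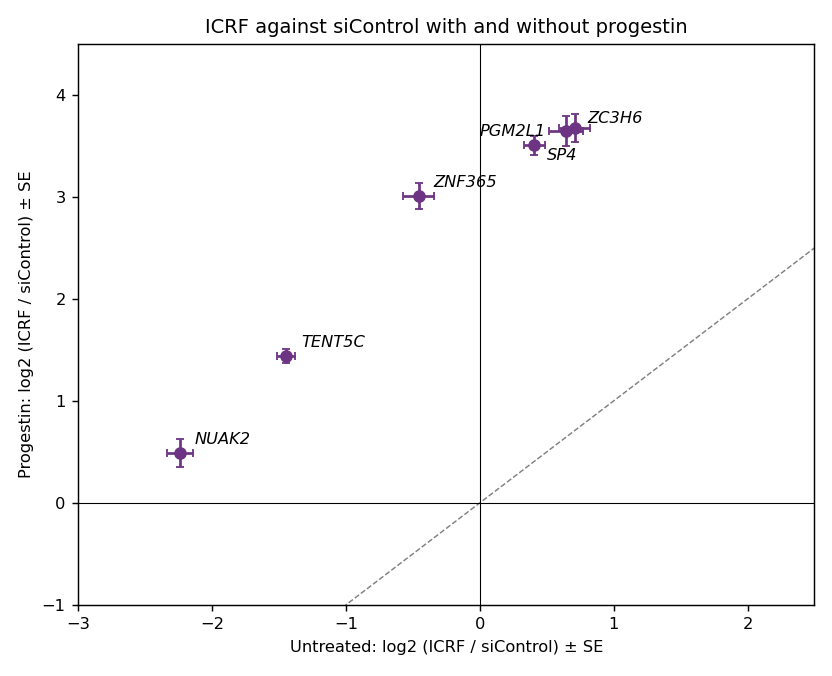
Log2 ratio of ICRF to siControl with progestin (vertical) against the same ratio untreated (horizontal), each ± SE, with a dashed line where both are equal. All 6 genes lie above the line, ZC3H6, PGM2L1 and SP4 at the upper right and NUAK2 at the lower left, at 0.49 with progestin and -2.24 untreated.

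The same log2 differences for siCEBPA against siControl libraries are given beside these without a test, because both use the siControl libraries. With progestin the 6 ranged from 0.04 for NUAK2 to 2.52 for PGM2L1, and untreated from -0.56 for NUAK2 to 1.58 for PGM2L1. All except NUAK2 were higher in siCEBPA than in siControl cells in both states. With progestin and untreated, SP4 was higher by 0.65 and 0.86 and ZC3H6 by 0.95 and 0.91. TENT5C was higher by 0.86 with progestin and 0.30 untreated, and ZNF365 by 1.10 and 0.53.

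**Figure D4:**
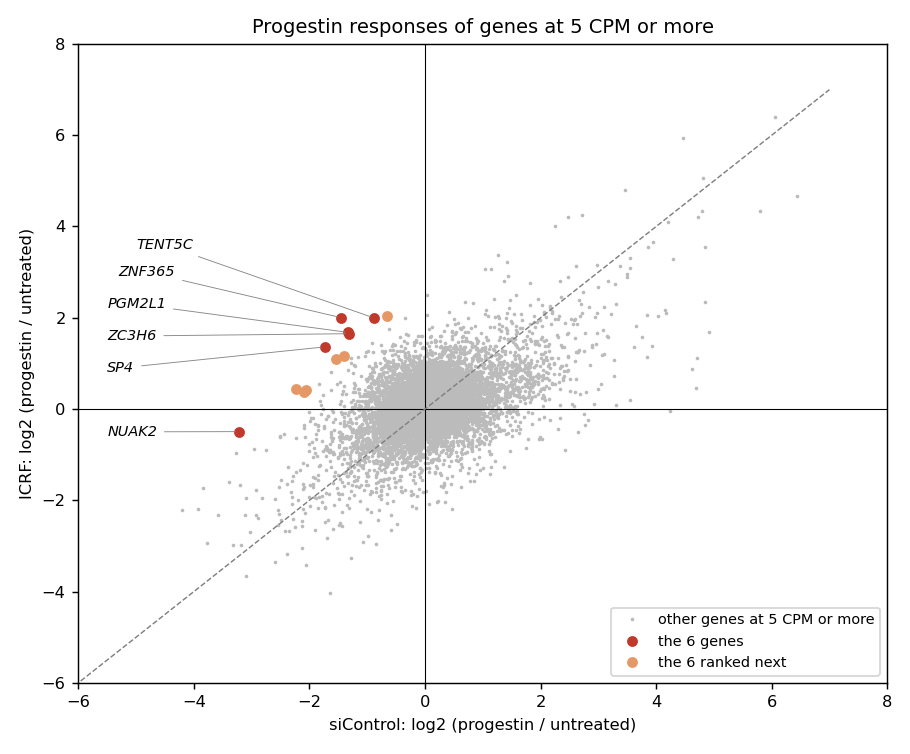
Log2 change with progestin under ICRF (vertical) against that in siControl cells (horizontal) for the 11406 genes at 5 CPM or more in an ICRF or siControl group, with the 6 genes in red, the 6 ranked next in orange and a dashed line of equality. Of the red points 5 lie at the upper left and NUAK2, at -0.50 under ICRF and -3.22 in siControl cells, at the lower left.

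Just inside the boundary NUAK2 stood at 2.73 and TENT5C at 2.89. Just outside it were SLC7A11 at 2.70, ULBP1 at 2.66, AREG at 2.64, LIPT2-AS1 at 2.56, RASL11B at 2.49 and PTGER4 at 2.47, so that no gap separated the 6 from the next genes. SLC7A11, the cystine transporter, and AREG, an EGF receptor ligand, were higher under ICRF (2.03 and 1.10) and lower in siControl cells (-0.67 and -1.54), as were the 5. LIPT2-AS1, an antisense RNA, had 1.16 and -1.40. ULBP1, a ligand of a natural killer cell receptor, RASL11B, a small GTPase, and PTGER4, a prostaglandin receptor, had ICRF responses of only 0.37 to 0.43 and siControl responses of -2.07 to -2.23. Of the 11406 genes 11 (0.096%) were higher by at least 1 log2 under ICRF and lower by at least 1 in siControl cells. Of these 11, 4 were SP4, ZC3H6, ZNF365 and PGM2L1. The same values chose the 6, so nothing is read from this count about them.

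The floor of 5 CPM decided the ranks. Among the ICRF and siControl groups, ZNF365, ZC3H6 and PGM2L1 passed it only through ICRF progestin, at means of 12.1, 15.4 and 7.94 CPM. NUAK2 passed it only through siControl untreated, at 17.8 CPM. With a floor of 1 CPM the 6 ranked 8 (ZNF365), 18 (SP4), 23 (PGM2L1), 26 (ZC3H6), 30 (TENT5C) and 39 (NUAK2) of 14054 genes, and with no floor they ranked 122 to 244 of 19003. With a floor of 10 CPM PGM2L1 dropped out and the others took ranks 1 to 5. Under the 18 alternative fits, at 5 CPM, ZNF365 ranked 1 in every one, and NUAK2 ranged from 5 to 9.

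The genes with the most similar profile were sought among 11519 genes with a symbol and at least 5 CPM, by the root mean square distance of centred log2 CPM over the 6 group means. SP4 and ZC3H6 were each other's nearest, at 0.26, where the median gene lay 1.21 from SP4. The ICRF and siControl means that chose both genes enter this distance. The choice itself thus favoured closeness between members, and it is given as a description. Next for SP4 came LIPT2-AS1 (0.37) and for ZC3H6 RBM26-AS1 (0.40). ZNF365 was nearest to ZCCHC24 (0.29) and H2BC6 (0.32), both higher under ICRF (1.40 and 1.27) and lower in siControl cells (-0.77 and -0.69). TENT5C was nearest to FGD6 (0.30) and SCML2 (0.31), and PGM2L1 to ZNF678 (0.39) and ZNF681 (0.46). NUAK2 was nearest to RNF43 (0.36) and STC1 (0.41), which were lower with progestin in all 3 conditions, RNF43 at -1.26 under ICRF, -2.32 in siCEBPA and -2.38 in siControl cells.

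Other genes within 50 kb were compared as well. Of 21, 7 passed the filter, and those that did not reached at most 0.0233 CPM. P4HA3, on the same strand 18661 bases from PGM2L1, had a difference of responses of 3.13 ± 0.95 (edgeR adjusted p = 0.00937) at no more than 0.660 CPM. TMCC2, near NUAK2 on the other strand, had 1.75 ± 0.37 (adjusted p = 0.000483). ZC3H8, a relative of ZC3H6 that lies 20458 bases from it, did not pass the test, at 0.23 ± 0.12 (adjusted p = 0.132). RGPD8, a member of a family of near-identical copies whose counts are uncertain, had 0.76 ± 0.29 (adjusted p = 0.0375), and SNRPGP10, a pseudogene and uncertain for the same reason, had -1.43 ± 0.57 (adjusted p = 0.0433). DNAH11 and KLHDC8A, both under 1 CPM, did not pass. One of the 21, at 0.00791 CPM, reached an exon of PGM2L1 on the other strand, and the counts were made by strand.

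The lists of relatives and partners of each gene were made with earlier results of these data known, so their choice was not independent of the data. Their genes were tested in the difference of responses, where 24.9% of all genes were called positive and 24% negative with a median of 0.02. The genes named from each list were those with the smallest p in that same difference. SP6, ZC3H8, ZC3H4, TENT5B, NUAK1 and PPP1R12A were added after their values were seen. All list counts below refer to that difference, with edgeR adjusted p-values over all 19003 genes. The largest value among the relatives was 1.45.

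Of 8 other SP factors, 4 were measured, 2 of which, SP1 and SP3, were called positive and 1, SP6, negative, with a list median of 0.37. SP1, the widely expressed founder of the family, had a difference of 0.58 ± 0.05 (adjusted p = 5.97e-09). It had 160 and 161 CPM in ICRF progestin libraries, against 195 and 191 CPM in ICRF untreated libraries, and 164 and 164 CPM in siControl progestin libraries, against 301 and 289 CPM in siControl untreated libraries. SP1 thus fell with progestin in both conditions, by 0.27 on the log2 scale under ICRF and 0.84 in siControl cells, while SP4 was higher with progestin under ICRF. SP3 had a difference of 0.62 ± 0.07 (adjusted p = 9.23e-08), with -0.09 under ICRF, a change that passed the test with upper quartile or RLE factors but not with TMM, and -0.71 in siControl cells. With no scaling factors 3 were called positive and none negative.

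Of 12 measured CCCH zinc finger genes, 4 were called positive and 3 negative, with a median of 0.02. The split was 6 and 3 with no scaling factors, and 3 and 4 with RLE factors. ZC3H12C, a relative of the endonuclease regnase, had the largest difference of all relatives, 1.45 ± 0.09 (adjusted p = 6.62e-11). It had 24.4 and 24.6 CPM in ICRF progestin libraries, against 21.1 and 21.3 CPM in ICRF untreated libraries, and 8.75 and 9.58 CPM in siControl progestin libraries, against 22.4 and 21.0 CPM in siControl untreated libraries. Its log2 change was 0.21 under ICRF and -1.24 in siControl cells. ZC3H10 had 1.15 ± 0.10 (adjusted p = 5.54e-09) and, like ZC3H6, rose with progestin under ICRF (0.80) and fell in siControl cells (-0.35). Unlike ZC3H6, it was lower untreated in ICRF libraries, at 8.82 and 9.04 CPM, than in siControl libraries, at 16.1 and 15.1 CPM. ZC3H4 was among those called negative, at -0.51 ± 0.08 (adjusted p = 9.24e-06).

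Of 9 measured terminal nucleotidyltransferases, 4 were called positive and 2 negative, with a median of 0.06, and with no scaling factors 6 and 2. TENT5A, of the same subfamily as TENT5C, had 1.35 ± 0.14 (adjusted p = 5.22e-08). It had 11.8 and 11.3 CPM in ICRF progestin libraries, against 4.09 and 3.54 CPM in ICRF untreated libraries, and 8.04 and 8.67 CPM in siControl progestin libraries, against 7.04 and 6.97 CPM in siControl untreated libraries. As with TENT5C, ICRF untreated was lower than siControl untreated, but TENT5A was not lower with progestin in siControl cells. Unlike TENT5C, TENT5A had siCEBPA untreated libraries, at 3.82 and 4.32 CPM, that overlapped those of ICRF untreated. TENT4B, which adds mixed tails to messenger RNA, had 0.87 ± 0.09 (adjusted p = 3.94e-08), from a rise under ICRF of 0.86. TENT5B, the other measured gene of the TENT5C subfamily, went the other way, at -0.63 ± 0.09 (adjusted p = 6.72e-06). It was higher with progestin both under ICRF (1.96) and in siControl cells (2.60).

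Of 5 measured phosphohexomutases, 1 was called positive and 4 negative, with a median of -0.42, of the opposite sign to PGM2L1, and 1 and 3 with no scaling factors. PMM2, a phosphomannomutase, had -0.62 ± 0.07 (adjusted p = 1.7e-07), and PGM2, the closest relative of PGM2L1, had -0.42 ± 0.06 (adjusted p = 1.38e-05). The list for NUAK2 held AMPK-related kinases, LKB1 and its partners, and PPP1R12A, a subunit of myosin phosphatase. Of its 16 genes, 6 were called positive and 6 negative, with a median of -0.15. PPP1R12A was among the positive, at 0.23 ± 0.06 (adjusted p = 0.00539). NUAK1 was also among them, at 0.55 ± 0.11 (adjusted p = 0.000307). Its log2 change was -0.17 under ICRF, -0.84 in siCEBPA and -0.72 in siControl cells, below 0 in each condition as for NUAK2. The ICRF change of NUAK1 did not pass the edgeR test with TMM (adjusted p = 0.063) but did with the other factor settings. MARK2 had -0.76 ± 0.06 (adjusted p = 7.31e-10) and PRKAA1, a catalytic subunit of AMPK, 0.57 ± 0.06 (adjusted p = 8.08e-08). Of 4 genes around NDEL1, a centrosomal partner reported for ZNF365, 1 was called positive and 2 negative, with a median of 0.03, and 1 and 1 with upper quartile or no scaling factors. NDEL1 itself had 0.53 ± 0.07 (adjusted p = 2.98e-06) and NDE1 -0.75 ± 0.07 (adjusted p = 7.04e-09).

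**Figure D5:**
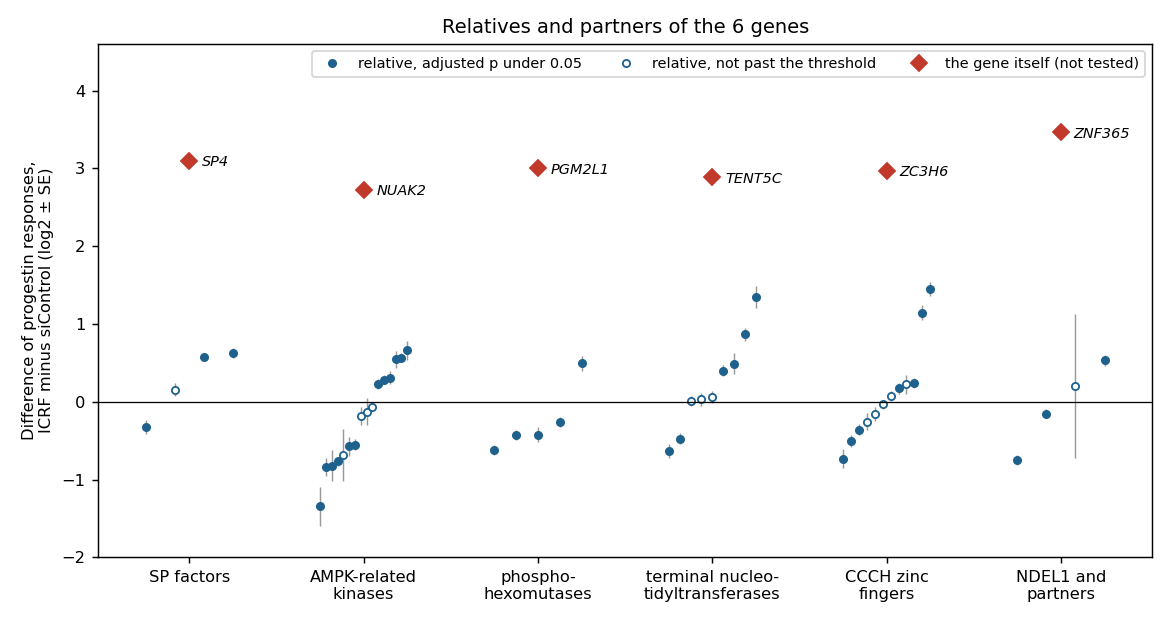
Difference of progestin responses, ICRF minus siControl (log2 ± SE), for measured relatives and partners of each gene, filled where called, with the gene itself as a red diamond. The relatives lie between -1.34 and 1.45 and the 6 genes between 2.73 and 3.46.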

How the data were processed

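Read-pair counts per gene in 12 RNA-seq libraries were used. They were made by the authors with featureCounts 1.5.1, which counted read pairs over GENCODE 24 exons on the reverse strand from STAR alignments to hg38, per the file headers. Multi-mapping reads were not requested there, so near-identical copies are uncertain. Of 60554 gene IDs 56558 matched a symbol, which held 99.85% of counts.

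Genes were filtered with filterByExpr, scaled with TMM factors and tested with edgeR 4.0.16 (quasi-likelihood, robust) in R 4.3.3, in one fit of 6 group means over all 12 libraries (6 residual degrees of freedom), adjusted by Benjamini-Hochberg over 19003 genes at 0.05. The standard error was the log2 change over the square root of F. CPM are TMM-scaled. With 2 libraries a group, precision is limited, and mean chi-square per gene between replicates (4.16 to 13.6) exceeded counting noise. Steps were tested on simulated counts. Alternatives were upper quartile, RLE and no factors, no filter, DESeq2 1.42.0, a replicate block, fewer groups and each library left out.

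The members and lists were chosen with earlier results of these data known. The text names the members, the 2 genes of each list with the smallest p in the difference of responses, the 2 nearest profiles, the 6 genes ranked next and genes that check the labels. Neighbours within 50 kb, SP6, ZC3H8, ZC3H4, TENT5B, NUAK1 and PPP1R12A were added after their values were seen. Promoters came from RefSeq (GRCh38.p14), where all 6 matched.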

Additional observations from a re-analysis of the deposited data

Results flagged for a closer look

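For 5 of the 6 genes both progestin libraries lay above both untreated libraries under ICRF and below them in siControl cells. Over all tested genes the ICRF part held for 40% and the siControl part for 39.9%, and the share with both was not computed. The same values chose the genes. The differences of responses (log2, ICRF minus siControl) were 3.46 for ZNF365, 3.10 for SP4, 3.00 for PGM2L1, 2.97 for ZC3H6 and 2.89 for TENT5C. These differences were not tested, since they chose the genes.

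Among relatives and partners the difference of responses passed the edgeR test and was positive for SP1 (0.58), SP3 (0.62), PRKAA1 (0.57), TENT4B (0.87), TENT5A (1.35), ZC3H12C (1.45), ZC3H10 (1.15) and NDEL1 (0.53). A positive difference is about the response and not the level. SP1, for instance, was lower in ICRF than in siControl libraries untreated, at means of 193 and 295 CPM. The difference was negative for MARK2 (-0.76), PMM2 (-0.62), PGM2 (-0.42) and NDE1 (-0.75). These 12 were named because they had the smallest p of their lists. Groups of 2 libraries are too small for a search for outlying samples.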

How the results depend on the processing

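No member changed direction in any of the 4 comparisons under any alternative. The counts of genes called stayed within 1.5 times those reported, and all 6 falls in siCEBPA cells kept their calls, except that of PGM2L1 without siCEBPA progestin replicate 2 (5 of 6 called). Over all alternatives the siCEBPA log2 changes ranged from -2.80 to -2.56 for NUAK2 and from -0.50 to -0.30 for TENT5C, and the differences of responses from 3.23 to 3.74 for ZNF365 and from 2.54 to 2.88 for NUAK2. Replicate numbers did not pair the samples: differences between same-numbered libraries correlated at -0.0306 to 0.0702 between groups. With a replicate block the siCEBPA response had 5754 genes called higher and 5297 lower, and 6 members called lower, and the difference of responses 4826 positive and 4677 negative. The lowest count of a member in any library was 37, for PGM2L1 with progestin in siControl cells.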
